A study of Mus musculus with 605 samples.

Results

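Pigment synthesis and melanosome genes are described here as a set of 10 genes picked by name: *Tyr*, *Tyrp1* and *Dct*, *Pmel* and *Mlana*, *Slc45a2*, *Slc24a5* and *Oca2*, *Gpr143*, and *Mitf*. They are 10 of the 30957 gene symbols in the tables. Their levels are given in single melanocytes from dorsal skin of mice at postnatal day 56 (P56), of which 81 of 85 wild-type cells and 84 of 88 mutant cells passed the limits on cell quality. The mutant is *Tyr-Nras* Q61K, a model of congenital nevi in which the *Tyr* enhancer and promoter drive an oncogenic Nras constitutively in melanocytes. At P56 wild-type hair follicles rest, whereas the authors report many growing follicles in mutant skin and clusters of senescent melanocytes in its dermis. Bulge stem cells of the hair follicle (wild type at P30 and P56, mutant at P56) and myeloid cells of the skin (wild type and mutant at P56) were used only to look for pigment RNA outside melanocytes. In mutant melanocytes 8 of the 9 genes with any value above 0 had a higher mean on the log2 scale than in wild-type melanocytes. So did 60.7% of all 8304 genes compared. *Pmel* had a lower mean on that scale, although its mean TPM was 1.04 times as high in the mutant. Its log2 difference was above 0 in rows A to D of the plates. In cells matched on genes detected 8 of the 9 were again higher, where 48.9% of 8603 genes were. *Tyrp1* (0.04), *Slc45a2* (0.07) and *Mitf* (0.08) were near 0 there.

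Melanin is made inside melanosomes, organelles related to lysosomes, in which a fibrillar protein first forms a scaffold and enzymes of the tyrosinase family then oxidise tyrosine and lay pigment on it. Membrane transporters set the pH and the ion content that the enzymes need, and a G-protein-coupled receptor of the melanosome membrane controls how many melanosomes form and how large they grow. MITF, the basic helix-loop-helix factor that specifies the melanocyte lineage, binds E-boxes in the promoters of many of these genes. In hair follicles, pigment is made by melanocytes of the growing follicle, whereas the melanocyte stem cells of resting follicles make little.

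No label names an animal or a plate. The labels give wells, and each group is taken here as 1 plate and counts as 1 sample. Genotypes were therefore not tested against each other, no difference is checked by a replicate, and genotype cannot be told apart from plate. Nor can it be told apart from the phase of the hair cycle or the place of the melanocytes in the skin. The unit is TPM, transcript abundance relative to all transcripts of a cell, which is scaled for transcript length, so that levels may also be compared between genes. SDs are over cells. A gene counted as detected at TPM 1 or more, and each share of cells is given with its 95% Clopper-Pearson interval, which covers counting error alone. Differences are mutant minus wild type in the mean of log2(scaled TPM + 1), with each cell's TPM scaled to a total of 10000, so changes of weakly expressed genes come out too small.

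RefSeq promoter windows (build GRCm38.p6, 250 bases before to 50 after a gene start) were at hand for 6 of the 10 genes, in 8 windows, 3 of them of *Mitf*. They are shown for TCATGTG, the core of the M-box that MITF is known to bind. It was found on either strand in 4 of these 6 genes, *Tyr*, *Tyrp1*, *Dct* and *Slc24a5*. Of all 32851 windows of the same length 3.77% held it, a share of windows and not of genes. The motif was picked as one already known for pigment genes, so these counts are no test of enrichment. The 30 bases around each match follow in the direction of the gene, with the match in capitals. On the opposite strand the match reads CACATGA.
Tyr, chr7:87493516-87493545, minus strand, match starting 22 bases before the gene start: gaaaaagttagTCATGTGctttgcagaaga
Tyrp1, chr4:80834155-80834184, plus strand, 47 bases before: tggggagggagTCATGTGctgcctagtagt
Dct, chr14:118052379-118052408, minus strand, 151 bases before: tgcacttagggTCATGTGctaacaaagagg
Dct, chr14:118052460-118052489, minus strand, 232 bases before, opposite strand: cttggctgggaCACATGAgcccaataaaga
Slc24a5, chr2:125068097-125068126, plus strand, 13 bases before, opposite strand: ggaggaaggagactgctCACATGAttcagc
Oca2, chr7:56239561-56239590, plus strand, 186 bases before, opposite strand, shorter match only: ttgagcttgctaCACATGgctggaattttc
*Tyrp1* and the nearer *Dct* match share TCATGTGCT with *Tyr*. The *Tyrp1* match lies in an annotated exon of GENCODE vM21, whose *Tyrp1* starts upstream of the RefSeq start, and the other matches lie outside the annotated transcripts of their genes. *Oca2* held the shorter CATGTG, which is contained in TCATGTG and was present in 14.2% of all windows, but not TCATGTG. None of the 3 *Mitf* windows held either motif. The general E-box CANNTG, which matches CATGTG in both motifs, was present in 72.3% of all windows. Every window of the 5 other genes held it, as did 1 of the 3 of *Mitf*. These matches are a description of letters and not of binding. *Pmel*, *Mlana*, *Slc45a2* and *Gpr143* have no entry in the promoter table.

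Of the plates behind these values, the wild-type melanocytes had a median of 2234 genes above 0 and the mutant melanocytes 2873.5 (lowest 1387 and 1013, highest 6300 and 6417). The reads behind a cell are unknown, since TPM does not keep them, and genes detected stand in for depth. Other lineage genes were present on both plates, with a median of 5 of 10 listed in a wild-type cell and 6 of 10 in a mutant cell. *Nras*, the gene whose oncogenic form the transgene carries, had a mean of 99.8 ± 129 TPM (SD, n = 81 cells) in wild-type and 78.6 ± 141 TPM (n = 84 cells) in mutant melanocytes, and in cells matched on genes detected 116 ± 139 TPM and 51.4 ± 82.3 TPM (n = 50 cells each). The plate labelled mutant, called mutant throughout, was thus not the higher one for *Nras*, and the label was not borne out by this gene. No source states whether transcripts of the transgene enter the value. Keratinocyte RNA also differed with genotype: *Krt14* or *Krt5* was detected in 9 of 81 wild-type and 42 of 84 mutant cells, mostly at low values, with a median *Krt14* of 3.0 TPM in the 28 mutant cells that had it and 407 TPM in the 8 wild-type cells. Over the 10 keratinocyte markers the summed level ran from 0 to 17279 TPM with a median of 0 in wild-type cells and from 0 to 26222 TPM with a median of 3.365 in mutant cells. Immediate early genes, which respond to stress and handling, went both ways: 6 of 10 were higher in the mutant and 4 lower, with *Fos* (1.28) and *Jun* (1.03) differing by more than any pigment gene on the log2 scale and *Junb* (-0.62) and *Atf3* (-0.57) lowest. Their summed level ran from 107 over a median of 3865 to 45810 TPM in wild-type and from 95.6 over 6419 to 53073 TPM in mutant cells. The part of keratinocyte RNA and of these genes in the differences was not tested. Markers of mast cells, which share *Kit* and *Mitf* with melanocytes, were near 0, with a highest sum of 17.1 TPM in 1 wild-type cell and 0 in the mutant cells.

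*Dct*, or tyrosinase-related protein 2, converts dopachrome to its carboxylated product and is among the first pigment genes on in melanoblasts. It lies on chr14:118012790-118052244 (GRCm38, minus strand). Wild-type melanocytes ran from 0 over a median of 10391 to 30651 TPM, and mutant melanocytes from 0 over 16475 to 42130 TPM. The ranges overlapped, but the lower quartile of the mutant cells, 11505 TPM, was above the wild-type median. *Dct* was thus the pigment gene at the highest level on both plates, and by mean TPM it stood 4th of all genes in wild-type and 1st in mutant melanocytes. Its mean was 10589 ± 6510 TPM (SD, n = 81 cells) in wild-type and 16854 ± 9429 TPM (n = 84 cells) in mutant cells, a ratio of 1.59 and a difference of 0.56 on the log2 scale. Nearly every cell had it, 98.8% of wild-type (interval 93.3 to 99.97%) and 97.6% of mutant cells (91.7 to 99.7%).

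*Tyrp1* encodes tyrosinase-related protein 1, which acts downstream of *Dct* in the making of eumelanin and stabilises tyrosinase. It lies on chr4:80834123-80851719 (plus strand). Its values ran from 0 over a median of 2110 to 12110 TPM in wild-type cells and from 0 over 2741 to 24165 TPM in mutant cells. The 2 plates covered nearly the same range, apart from a few mutant cells at the top. Means were 2764 ± 2582 TPM in wild-type and 3561 ± 3964 TPM in mutant cells, with a difference of 0.09 on the log2 scale. It was detected in 96.3% (89.6 to 99.2%) of wild-type and 96.4% (89.9 to 99.3%) of mutant cells.

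*Tyr* encodes tyrosinase, the rate-limiting enzyme of melanin synthesis, whose regulatory region also drives the transgene of the mutant. It lies on chr7:87424771-87493512 (minus strand). Its level was far below those of its 2 relatives: values ran from 0 over a median of 197 to 1301 TPM in wild-type cells and from 0 over 214 to 1787 TPM in mutant cells. The medians were close, and the plates differed in the cells without the gene and in the upper tail. *Tyr* was detected in 69.1% (57.9 to 78.9%) of wild-type and 85.7% (76.4 to 92.4%) of mutant cells. Means were 229 ± 252 TPM in wild-type and 373 ± 424 TPM in mutant cells, a difference of 0.39 on the log2 scale of means but 0.04 between the medians.

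*Pmel* encodes the protein that forms the fibrils of the early melanosome. It lies on chr10:128704195-128720238 (plus strand), and its ends overlap 837 bases of *Cdk2* and 105 bases of *Dgka*, both on the opposite strand. The counting is not stated to use strand, so reads in those stretches are uncertain. Wild-type cells ran from 0 over a median of 3187 to 24201 TPM and mutant cells from 0 over 3232 to 41884 TPM. The medians lay together while the spread did not: the lower quartile was 1048 TPM in wild-type and 148 TPM in mutant cells. Accordingly the 2 scales gave *Pmel* opposite signs, a mean of 5546 ± 5798 TPM against 5773 ± 7720 TPM in the mutant cells and a difference of -0.65 on the log2 scale. *Pmel* was detected in 88.9% (79.95 to 94.8%) of wild-type and 79.8% (69.6 to 87.7%) of mutant cells, and at 100 TPM or more in 88.9% and 76.2%. Of the cells with *Dct*, 8 of 80 wild-type and 15 of 82 mutant cells had no *Pmel*.

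*Mlana* (MART-1), a melanosome membrane protein that works with PMEL in early melanosomes, differed by 0.93 on the log2 scale, the largest value among the 10 genes with TPM scaled to 10000 and 1 added. With log2(TPM + 1) *Slc24a5* (2.11), *Slc45a2* (1.63), *Gpr143* (1.503) and *Tyr* (1.30) came before *Mlana* (1.08), and with 0.1 added *Slc24a5* did (1.37 against 1.01), so the order depends on the scale. *Mlana* lies on chr19:29697824-29708634 (plus strand). Wild-type cells ran from 0 over a median of 746 to 2692 TPM and mutant cells from 0 over 1884 to 13584 TPM. The upper quartile of the wild-type cells, 1474 TPM, was below the mutant median. Means were 953 ± 779 TPM in wild-type and 2362 ± 2332 TPM in mutant cells, a ratio of 2.48. In all kept cells the shares with *Mlana* did not separate, at 87.7% (78.5 to 93.9%) and 88.1% (79.2 to 94.1%). The plates differed in level among cells that had the gene, with medians of 878 and 2129 TPM there. In cells matched on genes detected the shares were 94% (83.5 to 98.7%) in wild-type and 84% (70.9 to 92.8%) in mutant cells.

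The 3 transporters are *Slc45a2*, a sugar and proton carrier linked to melanosome pH, *Slc24a5*, a potassium-dependent sodium-calcium exchanger, and *Oca2*, the pink-eyed dilution protein that carries chloride. *Slc45a2* (chr15:11000721-11029233, plus strand) ran from 0 over a median of 0 to 955 TPM in wild-type and from 0 over 126 to 1107 TPM in mutant cells. Means were 144 ± 207 TPM in wild-type and 218 ± 273 TPM in mutant cells, a difference of 0.36 on the log2 scale, and the shares of cells were 43.2% (32.2 to 54.7%) and 65.5% (54.3 to 75.5%). Among cells that had *Slc45a2* the order turned, with a median of 322 TPM in wild-type and 216 TPM in mutant cells.

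*Slc24a5* (chr2:125068124-125088677, plus strand) ran from 0 over a median of 0 to 1037 TPM in wild-type and from 0 over 101 to 2825 TPM in mutant cells. Its mean was 157 ± 276 TPM in wild-type and 381 ± 595 TPM in mutant cells, a ratio of 2.43 and a difference of 0.68 on the log2 scale. It was detected in 37% (26.6 to 48.5%) of wild-type and 60.7% (49.5 to 71.2%) of mutant cells, with close medians of 439 and 423 TPM where detected. Its 3′ end overlaps 4050 bases of *Myef2* on the opposite strand, so low values are uncertain. *Oca2* (chr7:56239760-56536518, plus strand) is listed at 0 in all 605 labelled cells of the 7 tables, as are 10211 of the 30957 symbols, 1 of them a cytosolic ribosomal protein gene. A value of 0 in every cell can be a failed estimate, and nothing was read from it.

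*Gpr143*, the receptor of the melanosome membrane that is mutated in ocular albinism, was the least often detected of the 9 genes. It lies on chrX:152781921-152808646 (plus strand). Most cells of both plates were at 0, and the highest values were 981 TPM in a wild-type and 1342 TPM in a mutant cell. Means were 85.4 ± 202 TPM in wild-type and 172 ± 287 TPM in mutant cells, a ratio of 2.02 and a difference of 0.42 on the log2 scale. It was present in 23.5% (14.8 to 34.2%) of wild-type and 40.5% (29.9 to 51.7%) of mutant cells, at medians of 368 and 398 TPM where detected.

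*Mitf* (chr6:97807052-98021349, plus strand), the regulator, was at a level near those of *Tyr* and the transporters, far below its targets *Dct*, *Pmel* and *Tyrp1*. Wild-type cells ran from 0 over a median of 127 to 1014 TPM, and mutant cells from 0 over 158 to 1426 TPM. The plates were close, with means of 170 ± 195 TPM and 206 ± 234 TPM and a difference of 0.16 on the log2 scale. Detection was 81.5% (71.3 to 89.2%) in wild-type and 90.5% (82.1 to 95.8%) in mutant cells. The gene has several promoters, and the tables give 1 value for all its transcripts.

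**Figure D1:**
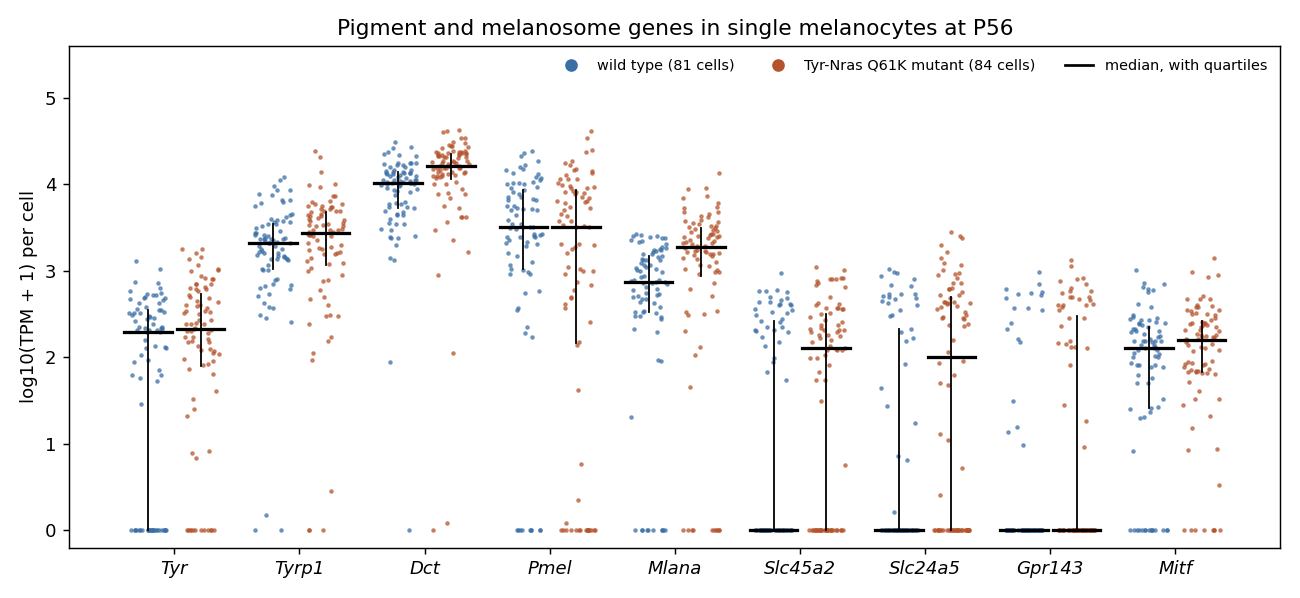
Each point is 1 melanocyte, on a log10(TPM + 1) axis, for the 9 genes above 0 in any melanocyte; blue is wild type (81 cells), orange is Tyr-Nras Q61K (84 cells), and black lines give medians and quartiles. The median of Mlana is 746 TPM in wild-type and 1884 TPM in mutant cells, and the lower quartile of Pmel reaches down to 148 TPM in the mutant cells.

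By mean TPM the order was *Dct*, *Pmel*, *Tyrp1* and *Mlana* on both plates. *Tyr*, *Mitf*, *Slc24a5*, *Slc45a2* and *Gpr143* came after them, at 85.4 to 229 TPM in wild-type and 172 to 381 TPM in mutant cells, and did not separate from each other beyond their SDs. Of all TPM of the 10 genes, *Dct* made up 51.3% in wild-type and 56.4% in mutant melanocytes, *Pmel* 26.9% and 19.3%, *Tyrp1* 13.4% and 11.9%, and *Mlana* 4.62% and 7.90%. The other 5 expressed genes each made up less than *Mlana*. Together the 10 genes took a median of 2.08% of a wild-type cell's TPM (lowest 0%, highest 7.46%) and 3.21% of a mutant cell's (lowest 0%, highest 12.9%).

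Of the 10 genes, 9 reached 10% of the cells of one plate or the other and could be compared, and *Oca2* could not. At a ratio of mean TPM of at least 2, 3 of the 9 were higher in the mutant (*Mlana*, *Slc24a5* and *Gpr143*), where 14.6% of the 8304 genes compared were. None of the 9 was lower by that ratio, where 11% of all genes were. On the log2 scale 8 of the 9 were higher, with a median difference of 0.39, whereas over all 8304 genes 60.7% were higher with a median difference of 0.03. *Pmel* was the gene that was lower.

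Because mutant cells held more detected genes, wild-type and mutant cells were paired 1 to 1 within 100 genes detected, which gave 50 pairs with medians of 2430.5 and 2419 genes. In these pairs *Dct* differed by 0.69, *Mlana* by 0.90, *Slc24a5* by 0.87 and *Gpr143* by 0.54 on the log2 scale, close to or above the differences in all cells. *Slc45a2* differed by 0.07 and *Mitf* by 0.08, less than in all cells. *Tyr* differed by 0.30, *Tyrp1* by 0.04 and *Pmel* by -0.58. In mean TPM the pairs had 1.68 times as much *Dct*, 2.57 times as much *Mlana* and 2.91 times as much *Slc24a5* in the mutant, and 0.986 times as much *Pmel*. A ratio of at least 2 was again met by 3 of the 9 genes (higher in the mutant: 15.9% of the 8603 genes compared in the pairs, lower: 17.9%). Among all genes 48.9% were higher in the pairs, with a median difference near 0.

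Wells in the upper and lower part of the plate did not give the same values. Among wild-type cells the 41 wells of rows E to H had more pigment RNA than the 40 wells of rows A to D, with a mean *Pmel* of 7458 ± 6706 TPM against 3585 ± 3880 TPM and a mean *Tyrp1* of 3423 ± 3047 TPM against 2087 ± 1796 TPM. The mutant plate went the other way, with a mean *Pmel* of 4723 ± 6678 TPM in 39 wells of rows E to H and 6682 ± 8491 TPM in 45 wells of rows A to D. Within rows A to D all 9 genes were higher in the mutant, *Pmel* by 0.30 on the log2 scale. Within rows E to H, 6 were higher and *Pmel* (-1.62), *Tyrp1* (-0.41) and *Mitf* (-0.01) were lower. *Dct* (0.89 and 0.24), *Mlana* (1.34 and 0.49) and *Slc24a5* (1.002 and 0.34) were higher in both, by amounts that differed by more than 1.5 times. The share of all genes higher in the mutant within rows A to D or E to H was not computed, so these counts have no background. Mutant cells had the higher median of genes above 0 in rows A to D (3030 against 2412.5) and E to H (2744 against 2128). Rows of a plate hold no labelled meaning, and their part in the differences was not tested.

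**Figure D2:**
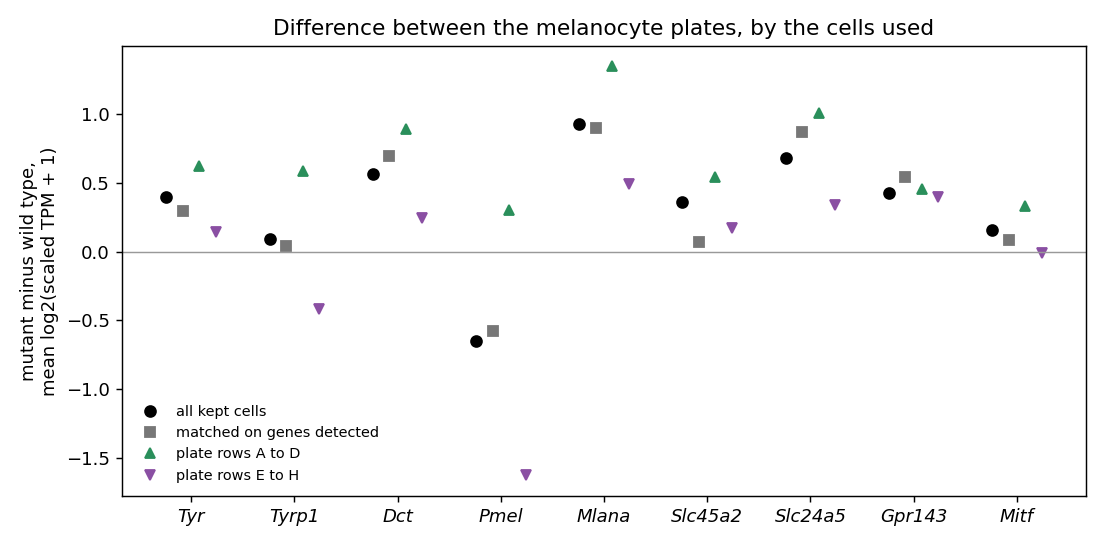
Mutant minus wild type in mean log2(scaled TPM + 1) for 9 genes, from all kept cells (black circles), cells matched on genes detected (grey squares), and plate rows A to D (green) or E to H (purple) alone. Mlana, Slc24a5 and Dct lie above 0 in every set of cells, and Pmel runs from 0.30 in rows A to D to -1.62 in rows E to H.

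The number of pigment genes a cell held differed too. A wild-type melanocyte had a median of 6 of the 10 genes at TPM 1 or more and a mutant one 7. At least 7 were present in 32 of 81 wild-type cells, 39.5% (28.8 to 50.99%), and in 65 of 84 mutant cells, 77.4% (66.95 to 85.8%). In the matched cells these shares were 42% (28.2 to 56.8%) and 78% (64.04 to 88.5%). By rows they were 37.5% and 41.5% of wild-type cells and 80% and 74.4% of mutant cells. The full set of 9 was present in 5 wild-type and 13 mutant cells. *Slc24a5*, *Slc45a2*, *Gpr143* and *Tyr* were each detected in 16.6 to 23.7 percentage points more of the mutant cells, where the median over all genes compared was 6.57 points. In the matched cells, with a median of 0 over all genes, *Slc24a5* and *Gpr143* still differed by 24 and 16 points, *Tyr* by 12 and *Slc45a2* by 6. There *Mitf* differed by 10 points, *Tyrp1* by 0, *Dct* by -4, *Pmel* by -6 and *Mlana* by -10.

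**Figure D3:**
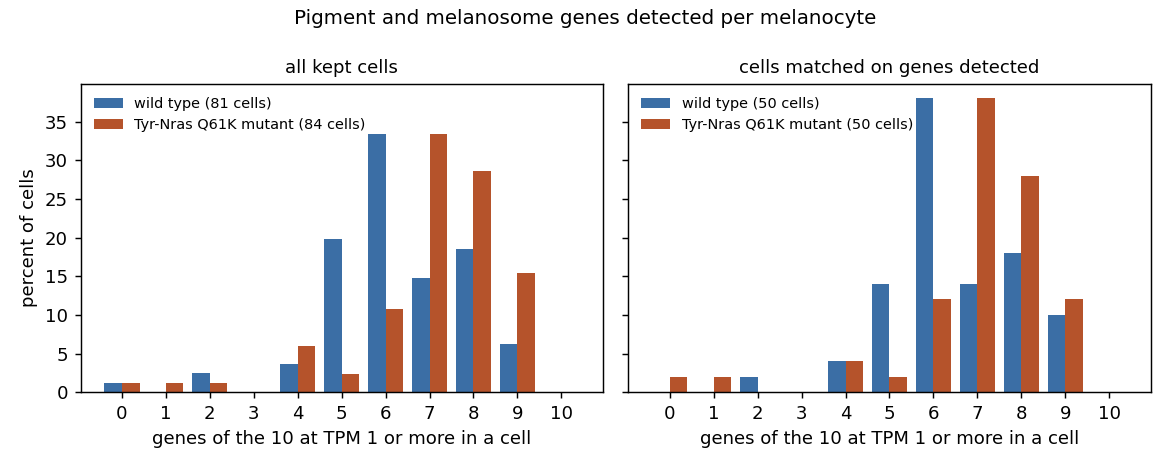
Percent of cells (bars, axis from 0) by the number of the 10 genes at TPM 1 or more, wild type in blue and Tyr-Nras Q61K in orange, for all kept cells (left) and for 50 matched pairs (right). Wild-type cells are most often at 6 genes and mutant cells at 7 in both panels.

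Few melanocytes lacked the set. Of the wild-type cells 3 had 2 genes or fewer, and likewise 3 of the mutant cells. In 1 of these wild-type cells myeloid markers led (*Ptprc* 153 TPM) and *Dct* was at 86.7 TPM, and 1 with none of the genes had *Sox10* at 223 TPM beside fibroblast markers. Among the mutant cells, 1 was led by keratinocyte markers (*Krt14* 5315 TPM, *Dct* 0.22 TPM) and 1 by endothelial markers. Over whole plates, markers of another cell type outweighed 10 lineage genes outside the set in 15 wild-type and 17 mutant cells, most often myeloid in the former (5) and keratinocyte in the latter (9). Without these cells the differences were 1.01 for *Mlana*, 0.69 for *Slc24a5*, 0.59 for *Dct* and -0.48 for *Pmel*.

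Across cells of a plate the pigment genes went together. Over the 36 pairs of 9 genes the median Pearson r was 0.27 in wild-type (lowest -0.01, highest 0.70, 35 pairs above 0) and 0.34 in mutant melanocytes (lowest 0.01, highest 0.70, 36 above 0). The median over all pairs of genes found in 25% of cells or more was 0.005 in wild-type (3089 genes) and 0.009 in mutant cells (4415 genes), where 0.00549% and 0.00728% of pairs reached 0.5. These r are descriptions over cells that share a plate, and no p was computed. *Tyrp1* and *Dct* had an r of 0.70 on both plates, *Tyrp1* and *Pmel* 0.59 in wild-type and 0.70 in mutant cells, *Dct* and *Pmel* 0.63 and 0.55, and *Pmel* and *Mlana* 0.56 and 0.42. Each plate had 5 pairs at 0.5 or more, all among *Tyr*, *Tyrp1*, *Dct*, *Pmel* and *Mlana*.

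*Mitf* had a median r with the other 8 of 0.14 in wild-type and 0.28 in mutant cells. In wild-type cells *Mitf* was next to the lowest, and in mutant cells above *Slc24a5* (0.23) and *Gpr143* (0.11). Its r with *Tyrp1* was 0.14 and 0.46, with *Dct* 0.29 and 0.34, and with *Mlana* 0.08 and 0.02. *Tyr* had a median r with the others of 0.20 in wild-type and 0.35 in mutant cells, and its r with *Tyrp1* was 0.28 and 0.50. *Gpr143*, the gene in the fewest cells, had the lowest medians, 0.14 and 0.11. Whether r differed between the plates was not tested. In the matched cells the medians were 0.26 in wild-type and 0.22 in mutant cells, and among cells with at least 5 of the genes both were 0.22.

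**Figure D4:**
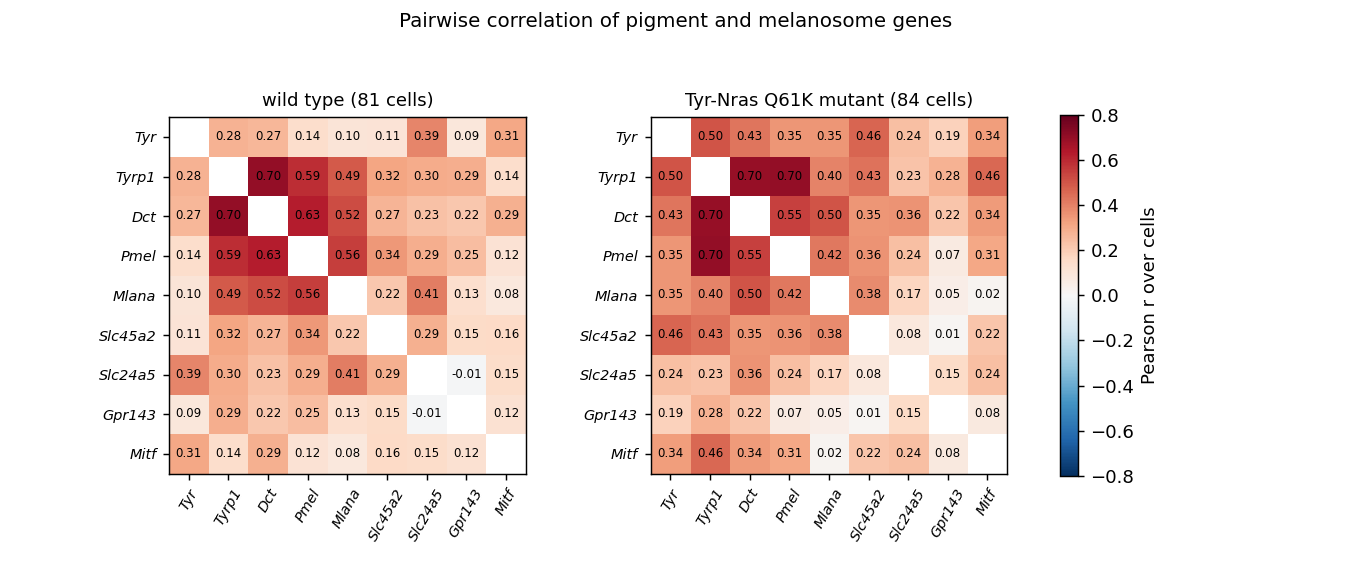
Pearson r over cells for each pair of the 9 genes, wild type left (81 cells) and Tyr-Nras Q61K right (84 cells), red for positive and blue for negative on a scale from -0.8 to 0.8. The pair Tyrp1 and Dct is at 0.70 on both plates, and Pmel and Mlana are at 0.56 in wild-type and 0.42 in mutant cells.

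The genes most like the set were ranked by the lower of their mean r with the 9 genes on the 2 plates, among the 2889 genes outside the set found in 25% or more of the cells on each plate. *Mgll*, monoacylglycerol lipase, came first with mean r of 0.34 in wild-type and 0.44 in mutant cells. *Sepp1* (selenoprotein P) followed with 0.30 and 0.35, and *Trpm1*, a channel gene whose intron hosts miR-211, with 0.29 and 0.29. Next were *Tspan10*, *Bace2* (a protease that cuts PMEL), *Cd63* (a tetraspanin that sorts PMEL), *Gpnmb* (a relative of PMEL), *Cdk2*, *St3gal6* and *Gsta1*, down to 0.25. The median mean r over the 2889 genes was 0.01 on each plate. *Cdk2* and *Gsta1* are uncertain here, the former because it overlaps *Pmel* and the latter because near copies of it exist. Among the 8 of these 10 genes with a promoter entry, *Trpm1* and *Tspan10* held TCATGTG.

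Other genes of the pathway were compared list by list, beside 60.7% of all genes higher in the mutant in all cells and 48.9% in the matched cells. Of 24 compared genes for melanosome formation (the HPS, BLOC, AP-3 and HOPS complexes, their RABs and cargo), 16 had a higher and 8 a lower mean in the mutant, with a median difference of 0.04 against 0.03 over all genes. *Cd63* was highest among them, at 3150 ± 1533 TPM in wild-type and 5574 ± 2606 TPM in mutant cells, a difference of 0.78 on the log2 scale. *Rab32*, a RAB that brings enzymes to melanosomes, was detected in 7.41% and 29.8% of cells (0.38), and *Bloc1s1*, a BLOC-1 subunit, in 60.5% and 81% (0.37). *Hps4* (-0.14) and *Ap3d1* (-0.05) were the lowest of those detected often enough to be named.

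Of 6 compared transport genes, 3 were higher and 3 lower, and the members of the complex that holds melanosomes on actin did not go one way. *Mlph*, the linker, had a difference of 0.37 and *Rab27a*, the melanosome anchor, 0.23, whereas *Myo5a*, the motor, had -0.42, with 288 ± 327 TPM in wild-type and 186 ± 211 TPM in mutant cells. *Rab1a* (-0.41) and *Sytl2* (0.12) were the others to be named. All 6 compared genes of melanosome chemistry and pigment type were higher, with a median of 0.09, in all cells and in the matched cells alike. Most of that list was at low levels, and *Gsta4*, a glutathione transferase with near copies, stood apart at 37.5 ± 150 TPM in wild-type and 676 ± 1552 TPM in mutant cells, detected in 9.88% and 53.6% of cells (1.44 on the log2 scale). *Ddt* (0.24) and *Ctns* (0.12) followed.

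Lineage genes outside the set went both ways. *Sox10* (0.34), a factor that acts upstream of *Mitf*, had a higher mean in the mutant, as did *Mlph* and *Rab38* (0.30). *Ednrb* and *Kit*, receptors on which melanoblasts depend, had lower ones: *Ednrb* 421 ± 423 TPM in wild-type and 248 ± 325 TPM in mutant cells (-0.57), and *Kit* 347 ± 286 TPM and 280 ± 360 TPM (-0.47). *Tfap2a* was near 0 (-0.03). In all, 7 of 10 lineage genes were higher and 3 lower, with a median of 0.15. MITF targets outside pigment synthesis were 7 higher and 2 lower of 9 with a median of 0.08, led by *Hif1a* (0.24), *Met* (0.21) and *Gpnmb* (0.15), with *Bcl2* (-0.18) lowest. In the matched cells this list split 5 to 4. Of 9 compared relatives and partners of MITF, 6 were higher and 3 lower, with *Usf1* (0.44), *Sox10* and *Tfeb* (0.22) at the top and *Irf4* (-0.22) and *Creb1* (-0.01) at the bottom. *Usf1*, another E-box factor that acts on pigment genes, was detected in 13.6% of wild-type and 36.9% of mutant cells.

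Outside melanocytes, cells with 3 or more of the genes were found on 1 plate. Among 84 bulge cells of wild-type P30 skin no cell held more than 1 of the 10 genes, and 9 held 1 (10.7%, interval 5.02 to 19.4%). Of 89 mutant bulge cells 37.1% held at least 1, of 73 wild-type myeloid cells 28.8% and of 72 mutant myeloid cells 25%, and none held more than 2. A count of 0 cells with 3 or more has an exact upper limit of 4.30%, 4.06%, 4.93% and 4.99% in these 4 groups. *Tyr* and *Slc45a2* were under 1 TPM in every cell of these 4 groups, and *Dct* was listed at 0 in every myeloid cell. On the melanocyte plates 96.3% of wild-type and 96.4% of mutant cells held at least 3.

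On the wild-type P56 bulge plate 43.4% of 83 cells held at least 1 of the genes. In 5 of the 83, 6.02% (1.98 to 13.5%), at least 3 of the genes were present, and in 4 of these, the wells D11, D8, G2 and H12, 6 to 9 were. *Dct* was at 5426, 2254, 3183 and 9809 TPM in these 4 wells, in the order given, and *Pmel* at 3753, 357, 2897 and 3194 TPM. *Dct* in D11 and H12 was above the lower quartile of wild-type melanocytes, 5349 TPM, and in D8 and G2 below it. *Pmel* was between their quartiles, 1048 and 8551 TPM, in all but D8. The same wells held *Krt14*, a keratinocyte marker, at 4515, 7224, 1019 and 6283 TPM, against a median of 7224 TPM over the plate. They held *Kit* at 458, 14.4, 98.9 and 124 TPM, whereas *Sox10* was listed at 0, 1.59, 26.99 and 0 TPM. *Ptprc* and *Cd34* were listed at 0 in all 4. The 4 wells carried 98.9% of the *Dct* TPM of the plate, 99.8% of its *Pmel* and all of its *Tyr*, *Mlana*, *Slc45a2* and *Gpr143*. Without them *Dct* was present in 6 of 79 cells, 7.59%, at no more than 53.6 TPM. The authors removed chambers seen to hold several cells, and whether these wells held more than 1 cell was not tested.

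**Figure D5:**
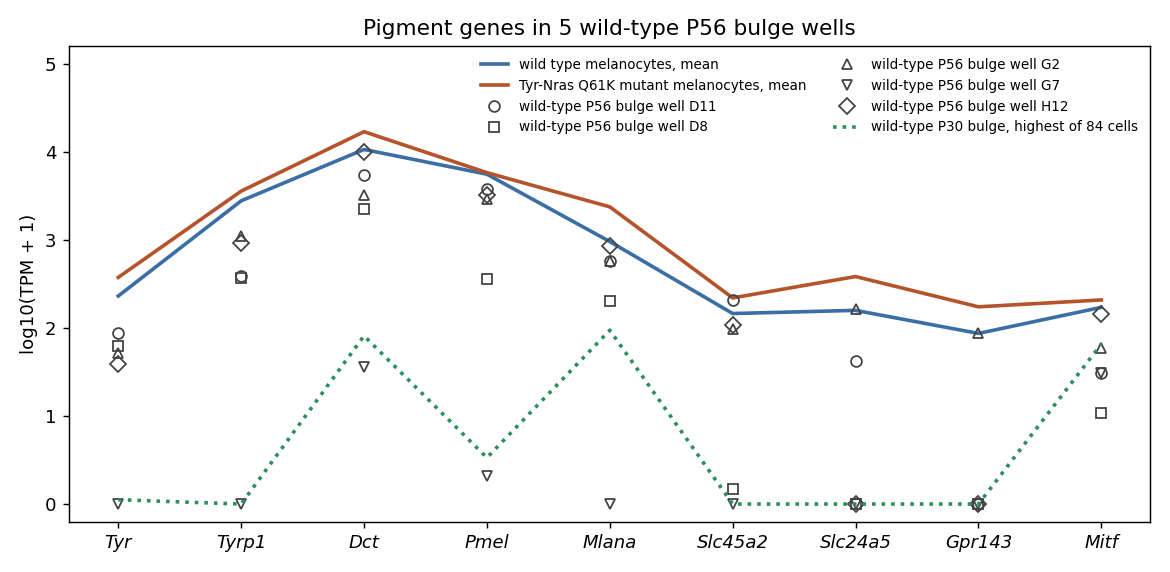
Level of 9 genes, log10(TPM + 1), in 5 wild-type P56 bulge wells with at least 3 of the genes (open symbols), beside the mean of wild-type (blue line) and mutant melanocytes (orange line) and the highest of 84 wild-type P30 bulge cells (green dotted). Wells D11, D8, G2 and H12 hold all of the first 5 genes, with Dct at 2254 to 9809 TPM, and well G7 lies near the P30 cells.

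*Slc24a5* and *Mitf* were the exceptions to this background. *Slc24a5* was detected in 17 of 89 mutant bulge cells (19.1%, 11.5 to 28.8%), 15 of 73 wild-type (20.5%, 11.98 to 31.6%) and 12 of 72 mutant myeloid cells (16.7%, 8.92 to 27.3%), at no more than 16.8, 38.7 and 26 TPM. All 17 of the bulge cells, 10 of the 15 and 8 of the 12 also had *Myef2*, the gene that overlaps its 3′ end, which was present in 52.8%, 24.7% and 26.4% of all cells of those groups. *Mitf* was detected in 25 of 83 wild-type P56 bulge cells (30.1%, 20.5 to 41.2%) at up to 145 TPM, in 21 of 79 without the 4 wells, and in 2 of 84 at P30 (2.38%, 0.290 to 8.34%). The values of both genes in melanocytes, with means of 157 to 381 TPM for *Slc24a5* and 170 to 206 TPM for *Mitf*, were above the means in these cells, which were at most 2.79 TPM and 10.9 TPM.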

How the data were processed

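Single cells of mouse dorsal skin were captured in microfluidic chambers. For cDNA synthesis the labels name Smart-seq2 and the study's methods a SMARTer kit on the capture system. The deposited values are TPM per gene, 1 column per cell, in 7 tables. Alignment by the authors used STAR, version 2.4.2 by the submitters' notes, against GRCm38 (mm10), and RSEM estimated gene levels over GENCODE models. Tables and labels call the unit TPM, and the methods write FPKM for the RSEM output and TPM for the limits on single cells. No sort of single melanocytes is given in the sources used here. The authors left out chambers seen to be empty or to hold several cells, and no doublet caller was run here.

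Symbols with several identifiers (40 of 30957) were averaged. A cell passed with TPM summing to 750000 or more, mitochondrial genes at 20% or less, and 1000 genes or more (2000 to 7000 for bulge cells), which left 566 of 605 cells. Read depth cannot be had from TPM. The intervals rest on the number of cells and cover counting error within a group alone, not the spread between mice. No 2 columns were identical. Among the columns for wild-type myeloid cells, 1 matched no label and was not used, and the mutant myeloid columns entered by group because they carry no well.

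Cells were scaled to 10000, transformed as log2(value + 1) and summarised by plate. Genes present in 10% or more of the cells on one melanocyte plate or the other were compared, and a ratio of mean TPM of at least 2 was counted. Cells were matched within 100 genes detected. All 10 genes of the set were named. From each list the 3 largest positive and 3 largest negative differences were named among genes present in 25% or more of the cells of one plate, and the 10 genes most like the set among those that reach it on both. The genes and lists were chosen with earlier results of these data known. Alignment of the proteins of *Tyr*, *Tyrp1* and *Dct* was planned and not run, because no protein sequences were used here. Positions are from GENCODE vM21 and promoter windows from RefSeq, both on GRCm38. Steps were tested on simulated data and run with pandas 2.3.3, NumPy 2.4.6, SciPy 1.17.1 and matplotlib 3.10.9 under Python 3.11.15.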

Additional observations from a re-analysis of the deposited data

Results flagged for a closer look

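Cells with at least 3 of the 10 genes were present in 1 set outside the melanocyte comparison, the wild-type P56 bulge cells. Of these, 6.02% held at least 3 (exact interval 1.98 to 13.5%). A count of 0 in 83 cells has an exact upper limit of 4.35%, which does not apply to the 5 cells counted here. No cell of the P30 bulge, mutant bulge and myeloid plates held at least 3, although some cells of each held fewer.

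Melanocytes left out by the limits on cell quality also carried the set. At least 3 of the genes were present in 1 of the 4 wild-type cells left out, and in 4 of the 4 mutant cells left out. In 1 mutant cell with 195 genes above 0, the set took 34.7% of all TPM, nearly all of it *Dct*.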

How the results depend on the processing

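No paired analysis was possible because the labels number cells by well and tie no wild-type cell to a mutant one, and no result comes from a test.

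Over 10 alternatives for each of 9 genes, 87 of 90 differences did not reverse, among them a difference of medians of 0 for *Gpr143*. The reversed values were *Pmel* at 0.30 in rows A to D, and *Tyrp1* at -0.41 and *Mitf* at -0.0136 in rows E to H, and the cause was not tested. The ranges over these alternatives were 0.49 to 1.34 for *Mlana*, 0.24 to 0.89 for *Dct*, 0.34 to 2.11 for *Slc24a5* and -1.62 to 0.30 for *Pmel*. Between 6 and 9 of the 9 genes were higher in the mutant. The share of all genes that were higher was computed only in all kept cells and in cells matched within 100 genes. The medians of 6 and 7 genes per cell were the same at TPM above 0, 10 or more and 100 or more, without the filter, in matched cells and without cells led by other markers. Of 108 shares of cells, 101 stayed within the main interval.

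The median r of mutant cells moved to 0.219 in cells with at least 5 of the genes and 0.224 in matched cells, and over all settings it ran from 0.189 to 0.287 in wild-type cells. The share of all genes at least 2-fold higher moved to 27.6% and the share lower to 23.8% with no filter on detection, and the latter to 17.9% in matched cells. At TPM 10 or more, cells with any of the genes fell to 30.1% of wild-type P56 bulge, 22.5% of mutant bulge, 10.96% of wild-type myeloid and 13.9% of mutant myeloid cells, because fewer values pass.

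With each group taken as 1 plate and no animal named, nothing here measures the spread between mice. Depth per cell is unknown, so a gene at 0 in a cell says only that it was not detected.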
